A study of Homo sapiens with 18 samples.

Results

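HOX genes encode homeodomain transcription factors that give cells their position along the head-to-tail axis, and in human they lie in 4 clusters. Within a cluster the genes share 1 direction of transcription, and in the embryo the order of the genes on the chromosome follows the order in which they are used, from the 3′ (anterior) end to the 5′ (posterior) end. Polycomb proteins hold silent HOX genes off, trithorax proteins keep active ones on, and retinoic acid is known to induce genes at the 3′ end. In the female reproductive tract HOX genes pattern the Müllerian duct, and many carcinomas, those of the ovary included, use HOX genes that the normal surface epithelium lacks.

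The HOX transcripts described here were the rows of the RNA-seq count table whose symbols begin with HOXA, HOXB, HOXC or HOXD, or are HOTAIR, HOTTIP or HOTAIRM1. The rule did not use any measured value. It found 31 of 23622 rows, of which 12 lie in the HOXB cluster on chromosome 17, 11 in the HOXC cluster on chromosome 12 and 8 in the HOXD cluster on chromosome 2 (hg38). Of these, 24 are protein-coding genes and 7 are antisense long noncoding RNAs, which are transcribed from the opposite strand of the same clusters. The rule matched no row for HOXA transcripts, HOTTIP, HOTAIRM1 or HOTAIR, so RNA values below are for HOXB, HOXC and HOXD only.

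A2780 is a cisplatin-sensitive line from a human ovarian carcinoma, and Acis (A2780cis) is its resistant derivative, made by long exposure to rising cisplatin and kept under a low dose at intervals during passage. Each line was either left untreated (control) or given 200 µM cisplatin for 3 h, and each of these 4 groups had 3 RNA-seq libraries from separate wells. ATAC-seq, which marks accessible DNA by transposase insertion, gave 1 peak list per group, in which replicates had already been combined. The lines are 1 parent and 1 derivative, so resistance and any other difference that arose between the cultures cannot be told apart.

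Libraries held 4130644 to 5072216 counted reads, and HOX transcripts took 2801 to 4370 of them. Values are given below as normalised counts, meaning counts scaled by TMM factors to the mean library size. A gene was called where edgeR's quasi-likelihood test across 15760 genes gave an adjusted p-value under 0.05 with a log2 fold change of at least 1 in size. Pairs of replicates differed by 0.73 to 1.53 times the variance that counting alone gives, and since they were wells of 1 experiment, p-values measure the spread between such wells. Of 10 epithelial and ovarian carcinoma markers, KRT18 (a keratin of simple epithelia) rose in Acis with a log2 fold change of 2.49 and KRT8 fell by 1.95 on the log2 scale. PAX8, WT1, KRT7, KRT19, MUC16 and CDH1 had no row in the count table. Among markers of other cell types, VIM (vimentin) differed by -0.02 on the log2 scale. COL1A2 had a mean of 787 normalised counts in A2780 control and 0 in Acis control. COL1A1, DCN and CDH2 were lower in Acis control, with log2 fold changes of -5.69, -3.64 and -3.20, and COL3A1 was higher, at 1.13. The part of these differences in the HOX values was not tested. Fewer cells making an RNA and less RNA per cell cannot be told apart in such bulk libraries.

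The main finding for the HOX transcripts was a different pattern in each cluster between the lines. HOXB3 to HOXB9 were lower in Acis, with log2 fold changes that grew in size along the cluster. HOXB7, HOXB8 and HOXB9 had few reads there, so the order among them follows their A2780 levels. HOXB13, beyond them on the chromosome, was detected almost only in Acis. HOXC genes moved in both directions, with HOXC4 and HOXC10 higher and HOXC8, HOXC-AS1 and HOXC-AS2 lower, and HOXD genes, at low levels in A2780, had no read in any Acis library except at HOXD1. Cisplatin for 3 h changed these levels little, and HOXC-AS3 was the only member that passed both criteria after treatment, in both lines.

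**Figure D1:**
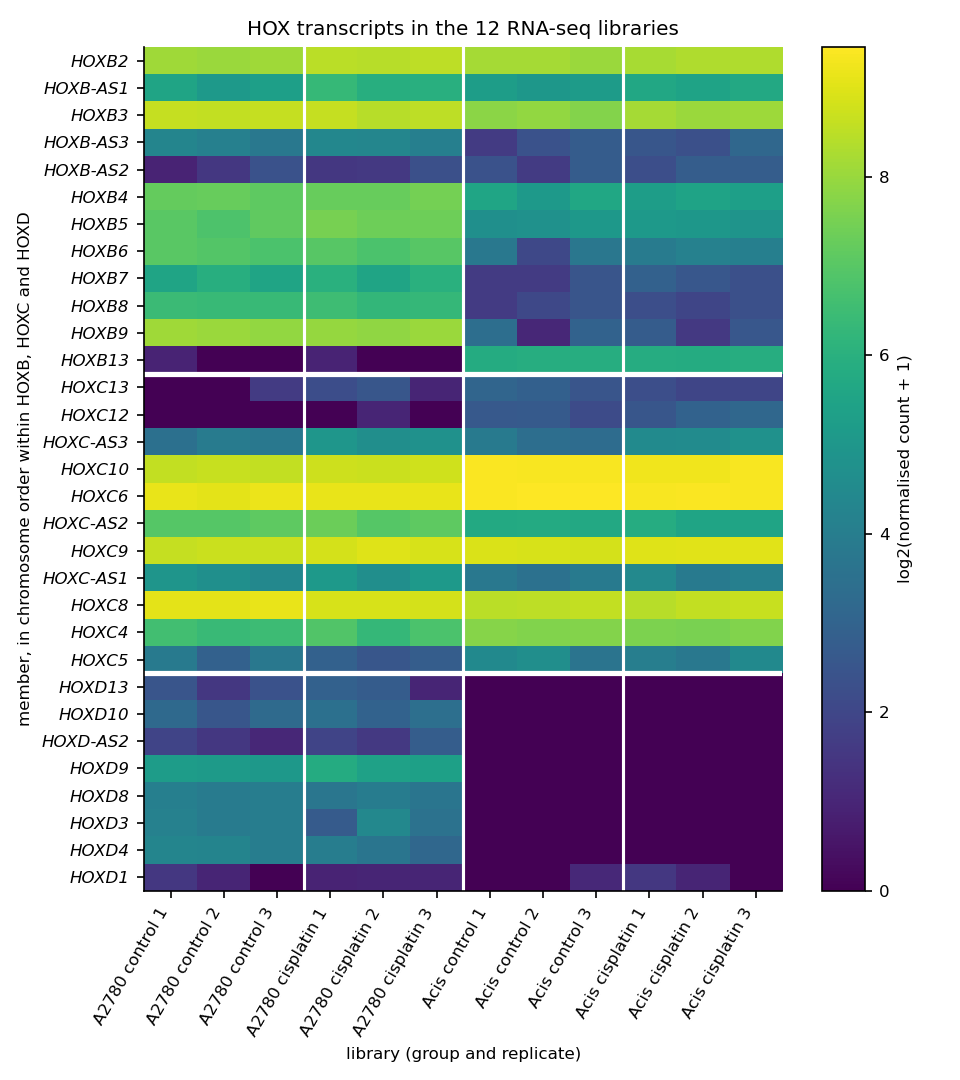
Heat map of log2(normalised count + 1) for the 31 HOX transcripts (rows, in chromosome order within HOXB, HOXC and HOXD) in the 12 RNA-seq libraries (columns, 3 per group, replicate numbers 1 to 3). All HOXD rows but HOXD1 are at 0 in the 6 Acis libraries, and HOXB13 and HOXC12 are at or near 0 in the 6 A2780 libraries.

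Levels were first compared between genes per kilobase of exon, as RPKM computed on TMM-scaled library sizes and the merged exon length. In A2780 control, HOXC9 had the highest level of any member (53.4 ± 1.95, SD, n = 3), followed by HOXC8 (49.3 ± 1.30), HOXC10 (35.9 ± 1.49), HOXC6 (35.3 ± 1.14), HOXB2 (24.1 ± 0.679) and HOXB9 (21.8 ± 1.53). HOXC10 and HOXC6 were adjacent in this order and differed by less than their SD, whereas HOXC9 and HOXC8 differed by more than the SD of either. In Acis control the order began with HOXC9 (62.2 ± 1.31) and HOXC10 (60.9 ± 0.843), which differed by less than the SD of HOXC9. Next came HOXC6 (43.5 ± 1.10), HOXC8 (33.3 ± 1.15) and HOXB2 (25.1 ± 1.42). These orders depend on the length used. With only unshared exon bases as length, HOXC6 (42.1) stood above HOXC10 (38.6) in A2780 control. In Acis control HOXC10 (65.5) was then level with HOXC9 (65.0). HOXB9, which stood next to HOXB2 in A2780, was at 0.492 ± 0.366 per kilobase in Acis control. Summed over the cluster, the per-kilobase level of HOXB was 121 ± 3.13 in A2780 control and 52.1 ± 1.48 in Acis control, that of HOXC was 205 ± 2.26 and 230 ± 0.555, and that of HOXD was 10.8 ± 0.943 and 0.044 ± 0.0763. HOXC had the largest sum in both lines, and the ranges of the lines did not overlap for any of the 3 clusters.

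The first comparison asked how the resistant line differed from its parent before treatment. Of the 31 members, 24 passed edgeR's default filter on low counts, 2 were called higher and 13 lower in Acis control. Over all 15760 genes tested, 6.99% were called higher and 12.2% lower. In all, 10 members passed the filter through the libraries of 1 line only, which favours a difference in that direction, namely HOXB7, HOXB8, HOXB9, HOXB-AS3, HOXD3, HOXD4, HOXD8 and HOXD9 through A2780, and HOXB13 and HOXC5 through Acis. Among the 14 that reached the minimum in both lines, 1 was called higher and 5 lower. By the adjusted p-value alone, 6 members were higher and 15 lower, where 28.2% and 30.6% of all genes were.

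Log2 fold changes of HOXB genes, Acis against A2780, fell in the order in which the genes lie on the chromosome. HOXB2, the most 3′ member measured (chr17:48540894-48545109, minus strand), gave normalised counts of 275, 261 and 274 in A2780 control and 289.7, 292 and 263 in Acis control. These ranges overlapped, and the log2 difference of 0.06 ± 0.06 (SE) had an adjusted p-value of 0.486 in edgeR. HOXB3, its neighbour, gave 393, 381 and 389 against 224, 243 and 205, with no overlap and a log2 fold change of -0.79 ± 0.07 (adjusted p = 6.31e-11), short of the 2-fold limit.

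HOXB4 is widely known for its role in the self-renewal of blood stem cells. It gave 146, 151 and 138 in A2780 control and 46.7, 34.1 and 49.0 in Acis control, a log2 fold change of -1.75 ± 0.12 (edgeR adjusted p = 1.27e-12). HOXB5 gave 129.6, 111.5 and 139.8 against 25.5, 26.6 and 31.9, a log2 fold change of -2.18 ± 0.14 (adjusted p = 1.71e-13). Every Acis library was below every A2780 library for both genes.

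Central HOXB genes differed more. HOXB6 gave 129, 119 and 109.9 in A2780 control and 12.7, 3.19 and 12.5 in Acis control, where the second library was lowest, and its log2 fold change was -3.65 ± 0.21 (edgeR adjusted p = 7.85e-15). HOXB7 gave 44.8, 59.6 and 44.8 against 2.12, 2.13 and 4.56, a log2 fold change of -4.05 ± 0.33 (adjusted p = 2.56e-11). HOXB8 gave 85.8, 81.7 and 82.2 against 2.12, 3.19 and 4.56, a log2 fold change of -4.62 ± 0.24 (adjusted p = 9.78e-16). In none of these genes did the lines overlap, and each Acis value rested on few reads (26, 8 and 9 in all over the 3 libraries).

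HOXB9, the last gene of the compact part of the cluster, showed the largest decrease of the HOXB genes. Its normalised counts were 275, 259.5 and 239 in A2780 control and 9.55, 1.06 and 6.84 in Acis control, a log2 fold change of -5.45 ± 0.20 (edgeR adjusted p = 2.73e-19) that was -6.04 without Acis control replicate 1. On raw counts, 789 reads stood against 16, a 44.6-fold ratio with a 95% exact interval of 27.3 to 78.4 that covers counting error only. HOXB7 and HOXB8 had intervals of 8.51 to 40.5 and 13.2 to 56.5, which overlap it. Acis control means of HOXB7, HOXB8 and HOXB9 were all low, at 2.94, 3.29 and 5.82 normalised counts. Their A2780 control means were 49.7, 83.2 and 258, so the order of their fold changes follows the A2780 levels.

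HOXB13 lies apart from the others (chr17:48724763-48728750, minus strand) and is best known as a prostate transcription factor. It ran opposite to its neighbours. A2780 control libraries held 0.93, 0 and 0 normalised counts and Acis control libraries 55.2, 58.5 and 58.1, which is 1 read against 158, a ratio of 175 with an exact interval of 30.9 to 6940. The edgeR adjusted p-value was 1.93e-14, and the same contrast stood after cisplatin, where the A2780 libraries held 0.94, 0 and 0 and the Acis libraries 56.6, 56.1 and 57.9.

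Treated libraries gave the same separation. HOXB4 gave 154, 154 and 178 in A2780 cisplatin and 37.4, 43.3 and 39.3 in Acis cisplatin, and HOXB5 gave 183, 165 and 165 against 33.6, 31.5 and 28.5. HOXB6 gave 126, 107 and 127 against 14.4, 16.7 and 15.7, and HOXB7 gave 63.7, 44.5 and 63.8 against 6.72, 4.92 and 3.93. HOXB8 gave 89.99, 76.5 and 78.5 against 3.84, 2.95 and 3.93, and HOXB9 gave 250.3, 237 and 264 against 5.76, 1.97 and 4.91. All A2780 libraries were above all Acis libraries for each of the 6 genes.

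The order along HOXB was also present in the treated libraries, which are separate from the controls. HOXB7, HOXB8 and HOXB9, however, passed the filter through A2780 only and had few reads in Acis with or without cisplatin. The order among them follows their A2780 levels, so the treated libraries cannot test it separately. From HOXB2 to HOXB9, the log2 fold changes of Acis cisplatin against A2780 cisplatin were -0.18 ± 0.06 for HOXB2, -0.43 ± 0.06 for HOXB3, -2.01 ± 0.12 for HOXB4, -2.45 ± 0.12 for HOXB5, -2.93 ± 0.18 for HOXB6, -3.43 ± 0.27 for HOXB7, -4.47 ± 0.22 for HOXB8 and -5.85 ± 0.20 for HOXB9. The log2 fold change of each gene was thus lower than that of the gene on its 3′ side in both comparisons. Neighbouring steps were not all larger than their error: in the control comparison HOXB6 and HOXB7 differed by less than the sum of their SEs.

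**Figure D2:**
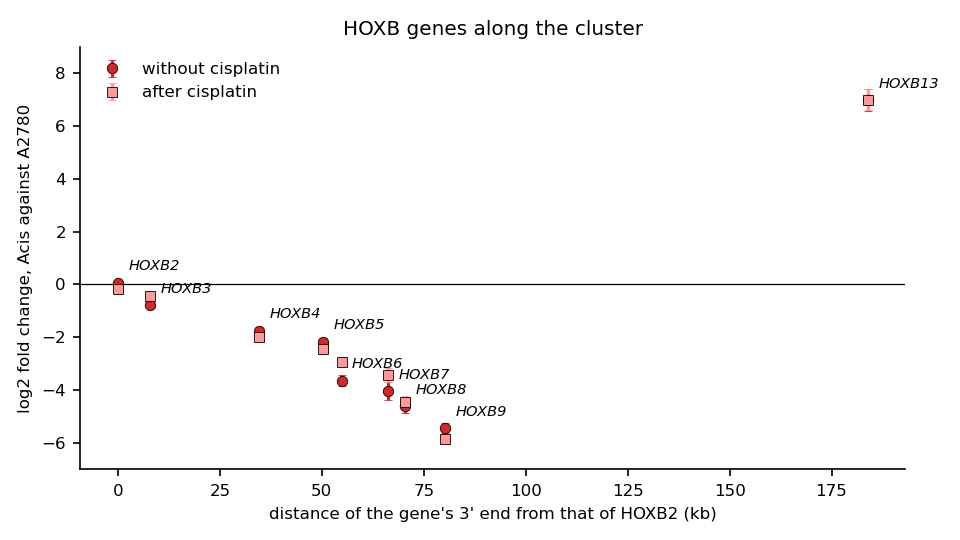
Log2 fold change of Acis against A2780 (y axis, points with SE bars from edgeR) for the HOXB protein-coding genes against the distance of each gene's 3′ end from that of HOXB2 in kb (x axis), without cisplatin (circles) and after cisplatin (squares). Values fall stepwise from 0.06 at HOXB2 to -5.45 at HOXB9 without cisplatin. HOXB7, HOXB8 and HOXB9 have few reads in Acis, so the order among them follows their A2780 levels. HOXB13 stands apart at 6.99, a fitted value that rests on 1 read in A2780 control and was 8.83 without A2780 control replicate 1.

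Antisense transcripts of HOXB did not all follow the coding genes. HOXB-AS1, which overlaps the 5′ part of HOXB2 (chr17:48543551-48551250, plus strand), gave 44.8, 32.7 and 39.5 in A2780 control and 37.1, 30.9 and 35.3 in Acis control, ranges that overlapped (log2 difference -0.18 ± 0.18, edgeR adjusted p = 0.452). HOXB-AS3, which spans HOXB3 to HOXB6 on the opposite strand, gave 18.6, 16.3 and 12.8 against 2.12, 4.26 and 5.70, with no overlap and a log2 fold change of -1.98 ± 0.38 (adjusted p = 5.26e-05). HOXB-AS2 held only 7 reads in A2780 control and 11 in Acis control and was not tested. The libraries are stranded and the counting used the strand, so reads of an antisense gene are separated from those of its coding partner.

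In HOXC, the genes with the most reads differed by less than 2-fold. HOXC6 gave 559.5, 539 and 575 in A2780 control and 667, 693 and 701 in Acis control, and HOXC9 gave 389.8, 413 and 417 against 482, 477 and 463. The lines did not overlap for either gene, but the differences were small on the log2 scale (0.30 ± 0.04 and 0.22 ± 0.05, edgeR adjusted p = 1.05e-06 and 8.19e-04). HOXC10 gave 380.5, 408 and 379 against 668, 650.4 and 662, a log2 fold change of 0.76 ± 0.05 (adjusted p = 2.4e-13), and all Acis libraries were higher. HOXC8 went the other way, with 533, 541 and 561 against 357, 366 and 382 and a log2 fold change of -0.57 ± 0.05 (adjusted p = 5.59e-10). None of these 4 genes reached a 2-fold difference.

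At the 3′ end of HOXC, HOXC4 was the second member called higher. Its normalised counts were 96.0, 83.6 and 87.5 in A2780 control and 210.1, 200.1 and 207 in Acis control, a log2 fold change of 1.21 ± 0.10 (edgeR adjusted p = 8.5e-11). HOXC5 gave 14.0, 6.73 and 12.8 against 21.2, 24.5 and 11.4, which overlapped (log2 fold change 0.78 ± 0.31, adjusted p = 0.0353). In the GENCODE gene models used here, HOXC4, HOXC5 and HOXC6 share exon bases on the same strand with each other or with other annotated transcripts. Reads that fall on bases of 2 genes are not assigned by the counting. By these models, only 32.7% of the exon bases of HOXC5, 82.5% of HOXC4 and 83.9% of HOXC6 could take reads. The gene models behind the authors' counts were not examined. The values of these genes are therefore uncertain as levels, more so for HOXC5.

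The 5′ genes of HOXC were rare in both lines. HOXC12 had 0 reads in A2780 control and 13 in Acis control. That is 4.79-fold higher with A2780 set to a floor of 3 reads over the group, and the exact interval starts at 3.37. After cisplatin HOXC12 had 1 against 20 reads (20.3-fold, exact interval 3.24 to 840). HOXC13 had 2 against 17 reads in the controls (9.39-fold, exact interval 2.23 to 83.8), but 10 against 10 after cisplatin. Neither gene passed the filter, so neither was tested in the main comparison.

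HOXC antisense transcripts fell or were level. HOXC-AS2, which runs opposite to HOXC9, gave 123, 125 and 139 in A2780 control and 52.0, 54.3 and 51.3 in Acis control, a log2 fold change of -1.29 ± 0.13 (edgeR adjusted p = 8.23e-10), while HOXC9 itself was slightly higher. HOXC-AS1 gave 29.8, 24.99 and 20.3 against 12.7, 10.6 and 13.7, a log2 fold change of -1.03 ± 0.26 (adjusted p = 0.00117) that lay close to the limit and was -0.89 without A2780 control replicate 1 and -0.94 without Acis control replicate 2, so that the call ended in each case. HOXC-AS3 gave 10.3, 14.4 and 12.8 against 13.8, 9.58 and 9.11, which overlapped (log2 difference -0.19 ± 0.30, adjusted p = 0.659).

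HOXD genes were expressed at low levels in A2780, and all members but HOXD1 were without a read in Acis. HOXD9, the most abundant, gave 36.4, 34.6 and 32.0 normalised counts in A2780 control and 55.3, 41.6 and 40.3 in A2780 cisplatin, and 0 in all 6 Acis libraries. That is 105 and 143 reads against 0, at least 31.7-fold and 47-fold lower in Acis against the floor of 3 reads. HOXD4 gave 18.6, 18.3 and 14.9 in A2780 control (at least 16-fold lower in Acis), HOXD3 gave 16.8, 14.4 and 14.9 (at least 14.2-fold), and HOXD8 gave 15.8, 14.4 and 14.9 (at least 13.9-fold). All 4 genes were called, with edgeR adjusted p-values of 1.52e-10, 6.43e-08, 1.63e-06 and 7.08e-08 for HOXD9, HOXD4, HOXD3 and HOXD8, and their fitted fold changes are not printed because they depend on the prior count.

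In A2780 cisplatin, HOXD4 gave 15, 11.6 and 7.85, HOXD3 gave 5.62, 20.3 and 10.8, and HOXD8 gave 12.2, 14.5 and 11.8, so HOXD3 varied most between wells. Against A2780 control none of the 4 genes tested reached an adjusted p-value of 0.05 in edgeR, and HOXD9 came nearest with a log2 fold change of 0.41 ± 0.17 (adjusted p = 0.0508).

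The other HOXD members were rarer still. HOXD10 had 22 and 28 reads in A2780 control and cisplatin, HOXD13 had 11 and 14, and the antisense HOXD-AS2 had 6 and 11, each against 0 in Acis. HOXD1, at the 3′ end, had 3 and 3 reads in A2780 and 1 and 3 in Acis, and no difference was detectable at this depth. Genes at either side of the cluster were not called. LNPK gave 274 ± 7.08 in A2780 control and 271 ± 15.2 in Acis control (SD, n = 3), and MTX2 gave 265 ± 4.34 and 240 ± 6.4, with log2 differences of -0.02 and -0.15 (edgeR adjusted p = 0.85 and 0.0833). HAGLR, a noncoding gene antisense to HOXD1, kept some reads, at 8.21 ± 0.453 and 1.47 ± 1.27.

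**Figure D3:**
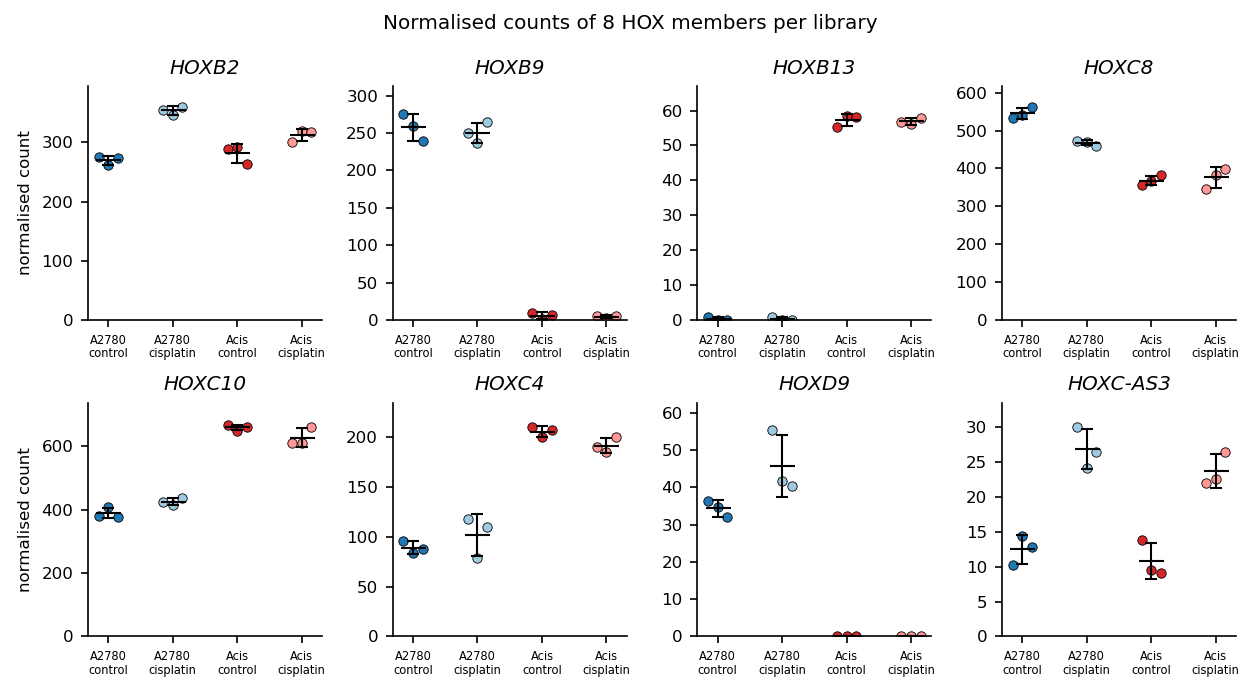
Normalised counts (y axis, starting at 0, separate scale per panel) of 8 HOX transcripts in each library (points, 3 per group), with the group mean and SD (bars). HOXB9 and HOXD9 fall to few or no counts in Acis, HOXB13 is at 55.2 to 58.5 in Acis control against 0.93 or less in A2780 control, and HOXC-AS3 is higher after cisplatin in both lines.

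The lines were also compared after cisplatin. Here 2 members were called higher (HOXB13 and HOXC5) and 12 lower in Acis, where 7.28% and 11.9% of all genes were, and without the fold limit 6 were higher and 17 lower, against 31.8% and 31.2% of all genes. Among the 14 members that reached the count minimum in both lines, 4 were called lower and HOXC4 was no longer called. HOXC4, HOXC-AS1 and HOXC5 differed in their calls from the control comparison. HOXC4 gave 118, 78.4 and 109.97 in A2780 cisplatin and 189.96, 185 and 200.3 in Acis cisplatin, a log2 fold change of 0.91 ± 0.10 in place of 1.21. HOXC-AS1 gave -0.81 ± 0.22 in place of -1.03. HOXC5 gave 6.56, 4.84 and 5.89 against 15.3, 12.8 and 21.6, a log2 fold change of 1.5 ± 0.37 (edgeR adjusted p = 9.13e-04), on 18 and 51 reads. HOXC-AS2 kept its call, with 159, 124 and 138 against 56.6, 45.3 and 45.2 and a log2 fold change of -1.52 ± 0.12 (adjusted p = 1.26e-11). HOXB-AS3 did so too, with 19.7, 19.4 and 15.7 against 4.80, 3.94 and 7.85 and a log2 fold change of -1.70 ± 0.32 (adjusted p = 5e-05). No library of 1 line overlapped those of the other for either antisense RNA. For HOXC4, HOXC-AS1 and HOXC5, whose calls changed, the interaction tested the change, and its adjusted p-values were 0.173 for HOXC4, 0.769 for HOXC-AS1 and 0.354 for HOXC5.

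The next question was whether cisplatin for 3 h altered HOX transcripts within each line. In A2780, 1 member was called higher and 0 lower by edgeR, where 4.14% and 1.48% of all genes were, and 5 higher and 1 lower passed on adjusted p-value without the fold limit, where 21.2% and 28.2% of all genes were. In Acis, 1 member was called higher and 0 lower, where 1.64% and 0.374% of all genes were, and 3 higher and 0 lower passed without the fold limit, where 9.35% and 12.4% of all genes were. DESeq2 also called 1 higher and 0 lower in each line. At an unadjusted p under 0.05, edgeR gave 7 higher and 2 lower in A2780 and 6 higher and 0 lower in Acis. The share of all genes at this unadjusted threshold was not computed, so these counts are not read as particular to HOX transcripts.

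HOXC-AS3 was the member called in both lines. This antisense RNA starts inside HOXC10 and runs across the start of that gene on the other strand (chr12:53981509-53985519, minus strand). Its normalised counts were 10.3, 14.4 and 12.8 in A2780 control and 30.0, 24.2 and 26.5 after cisplatin, a log2 fold change of 1.10 ± 0.23 (edgeR adjusted p = 2.49e-04). In Acis they were 13.8, 9.58 and 9.11 before and 22.1, 22.6 and 26.5 after, a log2 fold change of 1.12 ± 0.25 (adjusted p = 0.00181). Treated and control libraries did not overlap in either line, and the interaction gave 0.01 ± 0.33, with a 95% interval of -0.66 to 0.69. The change rested on 38 and 84 reads in A2780 and 30 and 73 in Acis. Without A2780 control replicate 1, the value in A2780 was 0.97 and so below the 2-fold limit, with an adjusted p-value of 0.00457. HOXC10, its partner on the other strand, gave 380.5, 408 and 379 before and 425, 414 and 438 after cisplatin in A2780 (log2 fold change 0.13 ± 0.05, adjusted p = 0.051).

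HOXB-AS1 rose in A2780 by less than 2-fold, and its rise in Acis was less certain. In A2780 its counts went from 44.8, 32.7 and 39.5 to 78.7, 60.0 and 60.9 (log2 fold change 0.77 ± 0.15, edgeR adjusted p = 1.12e-04), and in Acis from 37.1, 30.9 and 35.3 to 49.9, 43.3 and 51.1 (0.48 ± 0.17, adjusted p = 0.0475). Treated libraries were above control libraries in both lines, but in Acis the adjusted p-value passed the threshold under 6 of 18 alternatives (0.0253 to 0.274, the highest with DESeq2), and it was lost without any 1 of the 3 Acis control libraries, of the 3 A2780 control libraries, or of Acis cisplatin replicates 1 and 3, at 0.0515 to 0.189. HOXB2, which it overlaps, rose in A2780 from 261 to 275 before to 346 to 360.3 after treatment (0.39 ± 0.06, adjusted p = 3.01e-06), with 0.15 ± 0.06 in Acis (adjusted p = 0.116). HOXB5 rose in A2780 by 0.44 ± 0.09 on the log2 scale (adjusted p = 1.5e-04) and HOXC9 by 0.23 ± 0.05 (adjusted p = 6.33e-04), and HOXC8 fell by 0.22 on that scale (adjusted p = 6.25e-04, and 0.087 with total counts as library size). In Acis, HOXB3 rose by 0.29 ± 0.07 (adjusted p = 0.00468), which DESeq2 gave as 0.0664.

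Differences between the responses of the lines were small. The interaction passed an adjusted p-value of 0.05 for 3 members, where 18.9% of all genes passed. HOXB3 stood at 387.5 ± 6.19 before and 369 ± 21.1 after cisplatin in A2780, and at 224 ± 18.8 and 273.5 ± 15.1 in Acis (SD, n = 3), a difference of 0.36 ± 0.09 between the log2 responses (edgeR adjusted p = 0.00767). HOXC8 stood at 545 ± 14.3 and 468 ± 6.73 in A2780, and at 368 ± 12.7 and 376 ± 26.95 in Acis, a difference of 0.25 ± 0.08 (adjusted p = 0.0221). HOXC10 gave a difference of -0.20 ± 0.07 (adjusted p = 0.0454). None of the 3 passed with DESeq2 or when the closest pair of replicates in each group was merged to 1. The HOXD genes tested could not be compared in this way, since they had no reads in Acis.

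**Figure D4:**
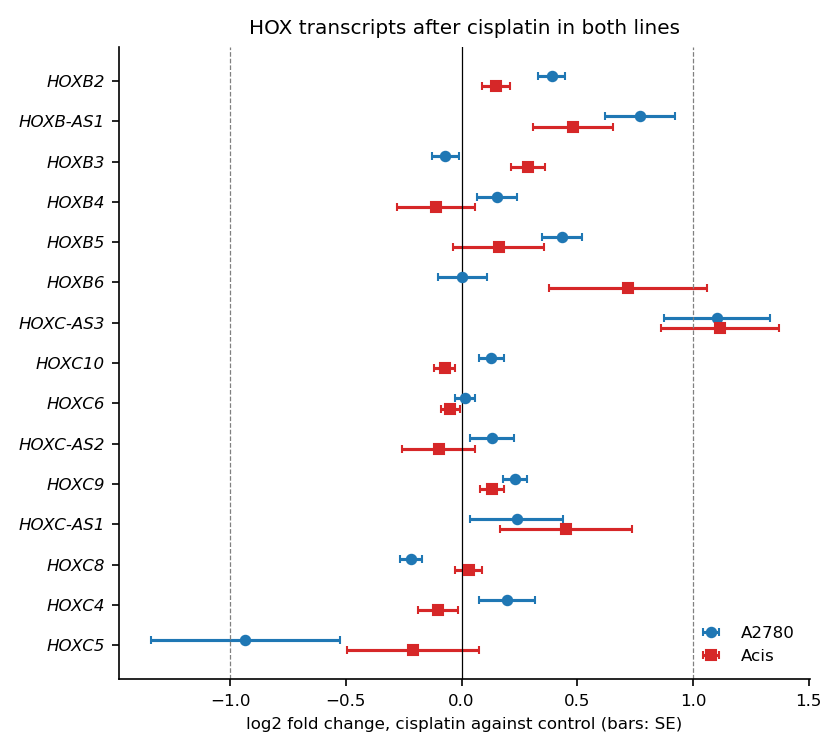
Log2 fold change after cisplatin (x axis, points with SE bars from edgeR) for the 15 members with at least 50 reads in each line (rows), in A2780 (circles) and Acis (squares), with dashed lines at a 2-fold change. HOXC-AS3 lies at 1.10 and 1.12, beyond the dashed line in both lines, and the other members lie inside it.

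Accessibility was examined next, over each cluster with 10 kb on either side. Each peak list is 1 value per group, so no test was made, and the lists differ in length, with 34979 peaks for A2780 control, 32159 for A2780 cisplatin, 24485 for Acis control and 27321 for Acis cisplatin. In that order, HOXB held 11, 13, 6 and 8 peaks, HOXC held 15, 11, 7 and 12, HOXD held 3, 6, 1 and 4, and HOXA held 3, 3, 1 and 1. In the full lists Acis control thus had the fewest peaks in each of HOXB, HOXC and HOXD. With only the 20000 strongest peaks of each list, the 4 clusters together held 15, 18, 13 and 15, and HOXC then held 5 in A2780 control and 6 in Acis control, so that the order turned for HOXC. All 15 peaks of Acis control overlapped a peak of A2780 control, whereas 14 of the 32 A2780 control peaks (43.8%) overlapped one of Acis control. Over the whole genome these shares were 83.3% and 57.9%.

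Merged over the lists, the peaks formed 40 regions. Of these, 13 (32.5%) were in all 4 lists, against 38.5% of the 45685 regions of the genome, and 8 (20%) were in both A2780 lists only, against 10.1%. No HOX region was in both Acis lists only, against 4.67% of all regions. These shares rest on single lists and were not tested.

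**Figure D5:**
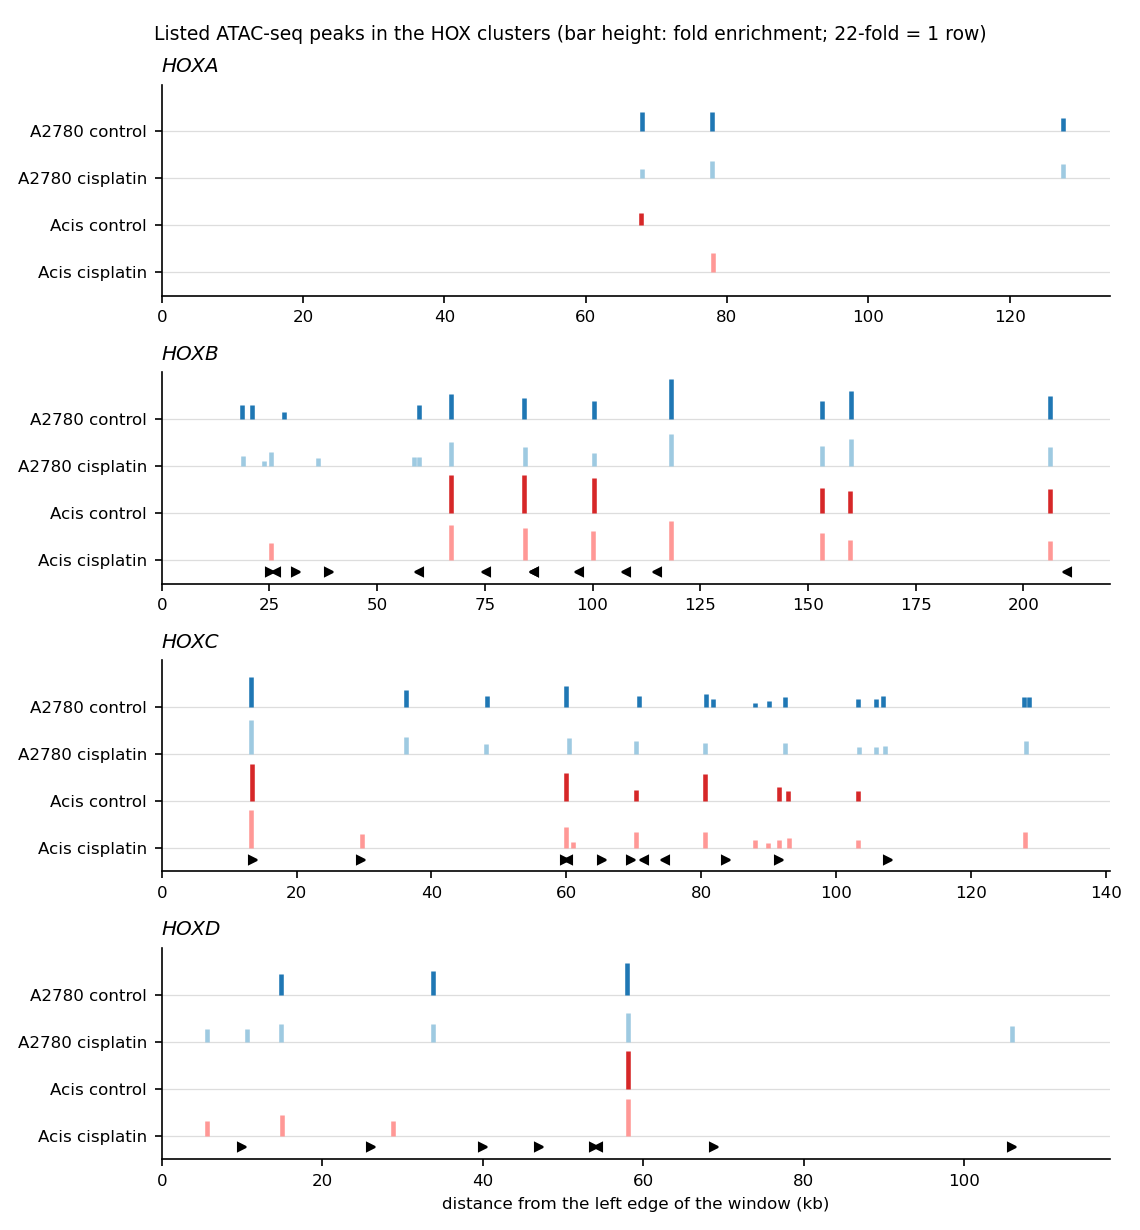
ATAC-seq peaks listed in the 4 HOX clusters, 1 panel per cluster and 1 row per list, with bars at the peak centres whose height is the fold enrichment over the local background and x axes in kb from the left edge of the window. Black arrowheads mark the starts of the 31 members and their direction. HOXD has 1 peak shared by all 4 lists and 1 in both A2780 lists only, and HOXB has 6 regions shared by all.

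In HOXD, where Acis had reads of no member but HOXD1, 1 region stayed accessible in all 4 lists. It lies in an intron of HOXD3 (chr2:176140335-176141152) with fold enrichments of 15 and 13.5 in the A2780 lists (control, then cisplatin) and 17.6 and 17.4 in the Acis lists. A second region, over an exon of HOXD10 (chr2:176116085-176116940), had enrichments of 11.3 and 8.30 in the A2780 lists and was not listed in Acis. It holds the RefSeq start of HOXD10. Another region over a HOXD10 exon (chr2:176111340-176111676) was listed in Acis cisplatin only, at 6.87, where the gene had no read. Both are shown as a window of hg38 around the strongest summit, the first as the region that stayed accessible and the second as the one listed only in A2780, with no part in capitals.

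HOXD3 intron, chr2:176140652-176140752, plus strand: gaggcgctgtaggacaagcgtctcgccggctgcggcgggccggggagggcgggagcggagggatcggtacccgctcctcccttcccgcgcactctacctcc
HOXD10 region, chr2:176116571-176116671, plus strand: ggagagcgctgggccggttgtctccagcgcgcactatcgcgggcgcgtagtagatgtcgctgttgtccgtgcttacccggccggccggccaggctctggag

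The window in the HOXD3 intron had 74.3% G and C and that in the HOXD10 region 69.3%. The RefSeq promoter of HOXD10 (GRCh38.p14, 250 bases before to 50 after the start) had 60.0% G and C and 23 CpG dinucleotides, where the medians over 34796 distinct RefSeq promoters were 58.7% and 14. RefSeq promoter sequences were matched for 12 of the 31 members, among them HOXC4 and HOXC5, which share 1 window.

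In HOXB, 6 regions were in all 4 lists, 3 of them between HOXB4 and HOXB9. These 3 lie in introns or an antisense exon (chr17:48585130-48586113, chr17:48602462-48603005 and chr17:48618500-48619031), and each had a higher enrichment in Acis control (18.1, 17.9 and 16.2) than in A2780 control (11.8, 10.1 and 8.54), although HOXB4 to HOXB9 were lower there. Median enrichment over all peaks was also higher in Acis control, at 12.8 against 9.96. The region at the start of HOXB4 (chr17:48578135-48578502) was in both A2780 lists only, with enrichments of 6.88 and 4.39. Near HOXB13, 1 region at its 3′ end (chr17:48724429-48725108) was in all 4 lists at 9.01 to 11.3, and no list held a peak at its start, although the gene had reads almost only in Acis.

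A region at the start of HOXB-AS1 (chr17:48543506-48544150), which also covers an exon of HOXB2, was listed only after cisplatin, at 6.53 in A2780 and 7.99 in Acis. Over the genome, 1.63% of regions were in both cisplatin lists and in neither control list. A region that is not listed may still be accessible below the threshold of the caller. The HOXB-AS1 sequence around the summit is shown because the region was listed only after treatment, with no part in capitals.

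HOXB-AS1 start, chr17:48543694-48543794, plus strand: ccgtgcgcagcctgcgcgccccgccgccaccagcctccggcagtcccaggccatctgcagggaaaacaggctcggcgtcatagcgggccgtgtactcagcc

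In HOXC, 6 regions were in all 4 lists. The one between HOXC10 and HOXC-AS3 had enrichments of 9.66 before and 7.65 after cisplatin in A2780, and 13.2 and 9.89 in Acis. The peak was thus listed before treatment, and its enrichment was not higher after it. Median enrichment over all peaks was also lower after cisplatin, at 8.79 against 9.96 in A2780 and 11 against 12.8 in Acis.

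Starts of the remaining members varied. Within 1 kb of the annotated start, 8 of 31 members had a peak in A2780 without cisplatin and 12 with it, and 6 and 9 did in Acis. The lists differ in length and the share of all gene starts with a peak was not computed, so no difference between lists is read from these counts. The 6 of Acis control were HOXC4, HOXC9, HOXC10, HOXC13, HOXC-AS2 and HOXC-AS3, all in HOXC and all also listed in the other 3 lists. HOXC12 had a peak at its start in Acis cisplatin only (6.25), where it had 20 reads. HOXD1 and HOXD13 had one in A2780 cisplatin only (7.57 and 5.95).

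Other genes of HOX regulation were examined from fixed lists. HOX proteins bind DNA together with TALE cofactors of the PBX, MEIS and PKNOX families. Of 10 TALE genes tested, 1 was called higher and 3 lower in Acis control, with a list median of -0.14 on the log2 scale against -0.01 over all genes. Among them, MEIS3 fell by 2.19 and PBX3 fell by 1.22 on the log2 scale, and PBX4 rose by 1.21. Members called thus went in both directions.

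Polycomb genes moved less. Of 11 genes of Polycomb repressive complex 2 tested, 0 were called higher and 1 lower (MTF2, an accessory subunit, log2 fold change -1.14, edgeR adjusted p = 7.67e-16), and EZH2, its methyltransferase, differed by 0.06 (adjusted p = 0.258). Of 19 genes of complex 1, 0 were called higher and 1 lower (PCGF5, -2.31, adjusted p = 6.75e-07). Of 14 trithorax and H3K27 demethylase genes 0 were called, although KMT2A fell by 0.45 and KDM6A by 0.42 on the log2 scale with adjusted p-values of 3.32e-13 and 4.68e-08. Of 9 boundary genes, CTCF among them at -0.04, 0 were called.

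Retinoic acid genes differed most among these lists. Of 13 tested, 2 were called higher and 5 lower in Acis control. ALDH1A3, an enzyme that makes retinoic acid, rose by 6.0 ± 0.26 on the log2 scale (edgeR adjusted p = 2.07e-17) and CYP26B1, which degrades it, rose by 3.89 ± 0.19 (adjusted p = 5.12e-16). CRABP2 and CRABP1, which bind it in the cell, fell by 5.41 and 7.45, and the retinol transporter STRA6 fell by 10.29 on that scale. The list median was -0.33 against -0.01 over all genes. DHRS3 and ALDH1A2, enzymes of retinoid metabolism, fell by 5.37 and fell by 4.30 on that scale. After cisplatin, 0 genes of these lists were called in either line by edgeR or DESeq2, although in A2780 several lists had many genes lower by less than 2-fold. In A2780, at an unadjusted p under 0.05, edgeR gave 1 TALE gene higher and 5 lower, 1 gene of complex 2 higher and 8 lower. It gave 6 of complex 1 higher and 7 lower, and 0 trithorax and demethylase genes higher and 7 lower. Of boundary genes 1 was higher and 8 lower, and of retinoic acid genes 3 and 4. In Acis the counts, in the same order, were 1 and 4, 2 and 4, 4 and 2, 1 and 7, 0 and 5, and 2 and 3. The share of all genes at this threshold was not computed. By edgeR's adjusted p-value alone, 28.2% of all genes were lower in A2780 and 12.4% in Acis, so these counts are not read as particular to the lists.

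Of 12 genes tested that flank the clusters or lie inside them, 1 was called lower in Acis control (GPR84, -2.85 on the log2 scale, edgeR adjusted p = 5.92e-07) and 0 higher, with a list median of -0.16. CBX1, beside HOXB, differed by -0.12 and CBX5, beside HOXC, by -0.71 on the log2 scale. DESeq2 called 3 of its genes lower.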

How the data were processed

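RNA-seq (12 libraries, 3 per group) and ATAC-seq peak lists (1 per group) were analysed. Per the study's methods, the authors aligned RNA reads to hg38 with STAR 2.7.3, removed duplicates with Picard and deposited gene counts from htseq-count 0.11.1 with reverse strandedness. For ATAC-seq the authors used cutadapt 1.15, Bowtie2 2.4.1 and MACS2, and deposited peaks shared between replicates, with a fold enrichment (ratio), a −log10 p and q value, a score and a summit position. Whether transposase shifts were applied is not given in the sources used here. The score was not used. The table held rows with at least 10 counts.

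Counts were tested with edgeR 4.0.16 in R 4.3.3 (TMM, default filter, quasi-likelihood test over 4 groups with 8 residual degrees of freedom, Benjamini-Hochberg adjustment). DESeq2 1.42.0 was an alternative. Total counts were 4130644 to 5072216 per library, and exact intervals (95%) and the floor of 3 counts over a group cover counting error only. Exon lengths came from GENCODE, promoters from RefSeq (GRCh38.p14). A peak counted at a start within 1 kb. The scripts were tested on simulated data. Members past both thresholds in any comparison were given by library, other members by values or counts, and of each other list at most 5 genes called between the control lines, by smallest adjusted p-value. EZH2, KMT2A, KDM6A, CTCF, VIM, DHRS3, ALDH1A2, LNPK, MTX2, HAGLR, CBX1 and CBX5 were added after their values were seen. The members and lists were chosen with earlier results of these data known. Some items are not reported here.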

Additional observations from a re-analysis of the deposited data

Results flagged for a closer look

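The response to cisplatin differed between Acis and A2780 for 3 members by edgeR's test of the difference itself. On the log2 scale the response of Acis minus that of A2780 was 0.36 for HOXB3 (edgeR adjusted p = 0.00767), 0.25 for HOXC8 (adjusted p = 0.0221) and -0.20 for HOXC10 (adjusted p = 0.0454). Each difference was well under 2-fold, and 18.9% of all genes tested passed the same threshold. With DESeq2 the adjusted p-values were 0.0677, 0.151 and 0.154.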

How the results depend on the processing

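Among 626 alternative values of called members, 601 kept direction and call, 25 lost the call and 0 reversed. Of 124 levels per kilobase, 27 moved by more than 1 SD when only unshared exon bases were used as length. In the control comparison DESeq2 and no filter each called 4 members higher in place of 2. With at least 50 counts on average (12 members and 10898 genes tested), the control comparison had 1 higher and 5 lower, the cisplatin comparison 0 higher and 5 lower, and A2780 and Acis after treatment 0 and 0 higher, since fewer members were tested. For the difference between responses, higher calls were 1 with total counts as library size, 0 with DESeq2 and 0 with the closest replicate pairs merged, and lower calls were 2 with DESeq2 size factors, 2 with total counts, 0 with DESeq2, 0 without a filter, 2 with at least 50 counts and 0 with merged pairs; the cause was not tested. Leaving out each replicate gave 0 to 1 higher and 0 to 1 lower in A2780 after cisplatin (0 higher without A2780 control replicate 1, and 1 lower, HOXC5, without A2780 control replicate 2), and 1 to 2 higher and 0 to 2 lower for the difference between responses. Total counts as library size moved the median response of all genes in A2780 to 0.104 on the log2 scale, from -0.011. With the 20000 strongest peaks, the clusters held 15 peaks in A2780 control, 18 in A2780 cisplatin and 15 in Acis cisplatin. Starts with a peak over the start itself numbered 5, 6 and 5 in these lists, and 13 in A2780 control when any annotated transcript start was used, an alternative chosen after seeing the data.

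With the replicate number as a block, 2 members were called higher and 13 lower in the control comparison, 2 and 12 after cisplatin, 1 and 0 within each line and 2 and 1 for the difference, as without it. Deviations of libraries with the same number correlated at -0.176 to 0.245, so the numbers were not taken to pair the libraries.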
